A study of Danio rerio with 8 samples.

Results

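Hox genes are the transcription factor genes whose staggered expression limits give each level of the hindbrain and spinal cord its anteroposterior identity. In the count table, 47 of 32189 gene IDs carried a symbol made of hox, a cluster letter from a to d and a paralogue number, and these were taken as the Hox genes. They were grouped by paralogue number into groups 1-4 (13 IDs), groups 5-8 (12 IDs) and groups 9-13 (22 IDs), and by cluster letter. Membership follows the symbol alone and not expression, but the Hox family was chosen with earlier results of these data known. RefSeq lists 49 protein-coding zebrafish Hox genes, of which hoxa4a matched no ID. A zebrafish name was used where the symbol gave one or where only 1 RefSeq gene was left for a capital symbol, and for 9 IDs the capital symbol is kept with the ID.

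Paralogue number follows position within each Hox cluster, and genes of low number have expression limits closer to the head. In the hindbrain, genes of the first paralogue groups have limits at borders between rhombomeres, the segments of the hindbrain, those of the middle groups have limits at its caudal end or in the spinal cord, and those of the last groups are used in the trunk, tail and fins. Retinoic acid made by the paraxial mesoderm beside the caudal hindbrain and spinal cord is a known activator of the anterior genes, Fgf signals are known to act on the same axis, and Pbx and Meis proteins bind DNA together with Hox proteins.

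The study asked which genes of the hindbrain respond to Fgf receptor activation. RNA from 8 single hindbrains, dissected with the tissue around them at 24 to 25 hours post-fertilisation (hpf), was sequenced. There were 4 control embryos, with genotype wt, and 4 ca_fgfr1 embryos, which express a constitutively active Fgfr1 from the heat-inducible hsp70 promoter. All 8 carry the strain label Tg(hsp70:ca-fgfr1). Both groups were raised at 28.5°C, heat shocked from 22 hpf (38.5°C, 30 min) and returned to 28.5°C for 2 h. Per the study's methods, transgenic embryos were heterozygotes from outcrosses, controls were their heat-shocked clutch mates, and qPCR after RNA extraction decided the group of each hindbrain. The heat shock reaches every tissue of the embryo, so the receptor was not limited to the hindbrain. Each library is 1 embryo, so p-values measure the spread between embryos, and differences in dissection are part of that spread.

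Libraries held 13173019 to 20541155 counts, and 3 counts corresponded to 0.143 to 0.281 CPM, that is, counts scaled to a library total of 1000000. All 5 neural markers were detected, with summed levels of 1855 to 2628 CPM in controls and 1757 to 2487 CPM in ca_fgfr1. Of the hindbrain segment markers, egr2b was at a mean of 35.8 CPM in controls and 35.2 CPM in ca_fgfr1. Neither FGFR1 ID was higher in ca_fgfr1 (log2 fold change 0.08 ± 0.26 SE for ENSDARG00000011027 and -0.46 ± 0.39 for ENSDARG00000011190). Whether reads of the transgene would count toward either ID was not checked, so these values do not show whether it was expressed. The Fgf target etv5b was at 35.7 to 119 CPM in controls and 233 to 384 CPM in ca_fgfr1, without overlap. Of all genes tested, 1.90% were higher in ca_fgfr1 without overlap. The log2 fold change of etv5b was 1.80 ± 0.35 (edgeR adjusted p = 0.253), so the main test did not call this Fgf target either. The study, which used DESeq2, did report etv5b among its top induced genes in this experiment. Its in situ hybridisation showed ectopic etv5b with active Fgfr1. Control replicate 4 held actc1b, a muscle actin gene, at 112 CPM against 0.749 to 3.59 CPM in the other 7 libraries. Control replicate 1 and ca_fgfr1 replicate 2 had the lowest elavl3, a neuronal gene, at 183 and 139 CPM against 486 to 796 CPM in the other libraries.

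No Hox gene was called changed. Of the 47 IDs, 45 had at least 1 count and 18 passed the filter on low counts: all 13 of groups 1-4, 4 of groups 5-8 and 1 of groups 9-13. The edgeR quasi-likelihood test, adjusted over all 18075 genes tested, called 0 of the 18 at an adjusted p of 0.05 or less, and it called 0.0498% of all genes. The study's own criteria, which it set for DESeq2 results, were applied here to the edgeR fit. They require an adjusted p of at most 0.01, at least a 2-fold change and normalised counts above 30 in all libraries of a group. In the edgeR fit 0.0166% of all genes and 0 Hox genes passed them. The adjusted p-values of the Hox genes ranged from 0.866 to 0.997. Among the 18, 16 had a log2 fold change below 0 (ca_fgfr1 minus control), with a median of -0.80, beside 54.1% of all genes tested and a median of -0.04. The 16 and the -0.80 include hoxa10b, which passed the filter only through the controls, so its direction is no support. A stricter filter, at 5 CPM in 4 libraries, left out hoxa10b and other genes of low level and gave a median of -0.65. At an unadjusted p under 0.05, 3 Hox genes were lower (hoxd3a, hoxb4a and hoxa10b) and 0 were higher, beside 3.21% of all genes lower and 2.14% higher. Of the 3, hoxa10b passed the filter only through the controls, where it is high, so its being lower is no support. A stricter filter that left it out gave 2, and the share of all genes was not counted in that fit. DESeq2 also called 0 of the 18, beside 0.455% of all genes, with a smallest adjusted p of 0.477 and with 4 Hox genes lower at an unadjusted p under 0.05, beside 4.46% of all genes. limma-voom called 0 of the 18, beside 0.0553%, with a smallest adjusted p of 0.859 and 5 Hox genes lower at an unadjusted p under 0.05, beside 3.07%. The 4 and the 5 both include hoxa10b (unadjusted p = 0.0103 in DESeq2 and 0.0148 in limma-voom), which is no support there either. All Hox genes were read in the same 8 libraries, so these counts are not made of independent genes.

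**Figure D1:**
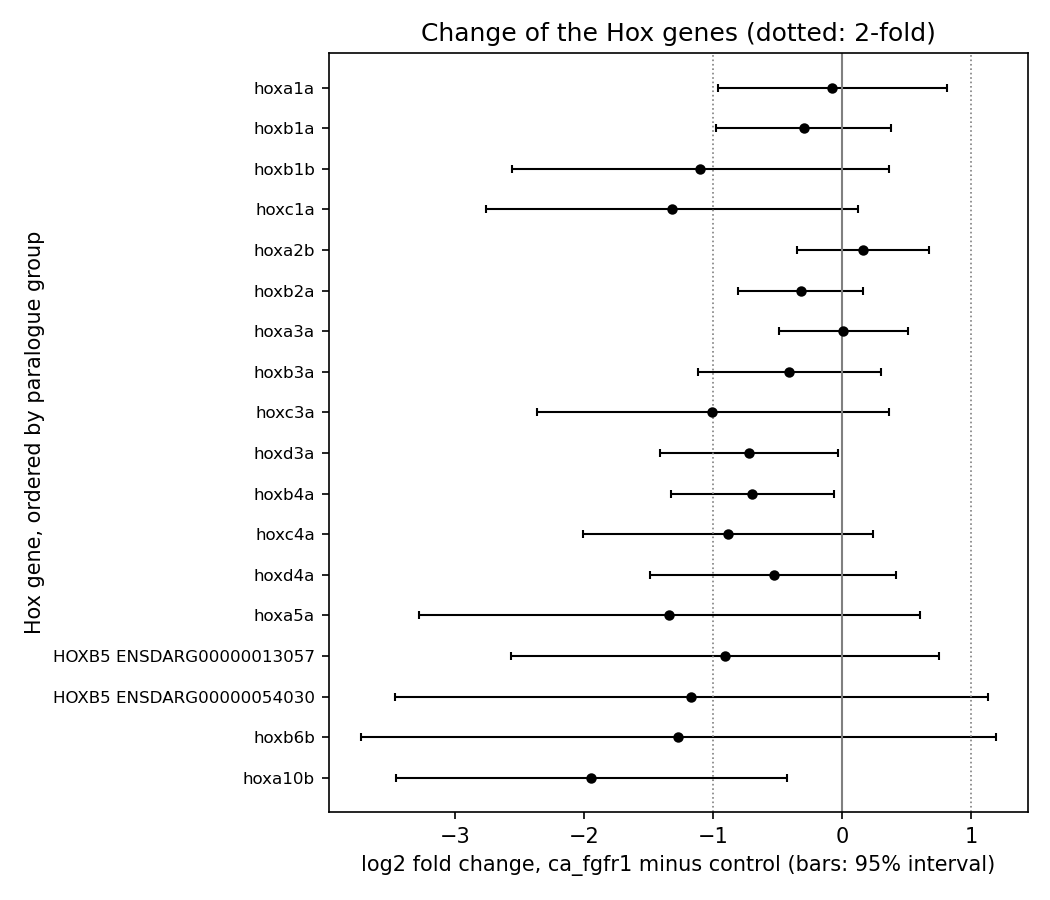
Log2 fold change (ca_fgfr1 minus control, edgeR) of the 18 Hox genes that passed the count filter, ordered by paralogue group, with 95% intervals as bars and dotted lines at a 2-fold change in either direction. Points lie below 0 for 16 genes, including hoxa10b, which passed the filter only through the controls. The interval lies below 0 for hoxd3a, hoxb4a and hoxa10b, and it stays inside the dotted lines for 5 genes.

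How far the data bound a change differed between genes. The 95% interval of the log2 fold change lay between -1 and 1, that is, within a 2-fold change, for 5 of the 18 genes: hoxa1a, hoxb1a, hoxa2b, hoxb2a and hoxa3a. For the other 13 it reached past a 2-fold change, as the plot of fold changes with intervals shows. In bulk tissue, fewer cells of a type and less RNA per cell cannot be told apart.

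Group 1 holds the earliest Hox genes of the hindbrain. The gene hoxb1a, which marks rhombomere 4 and is needed there for the migration of facial motor neurons, was at 101, 81.4, 51.5 and 51.1 CPM in controls (replicates 1 to 4) and 62.9, 79.3, 52.0 and 37.0 CPM in ca_fgfr1. The groups overlapped, and the log2 fold change was -0.30 ± 0.31 (SE, edgeR adjusted p = 0.906), ranging from -0.51 to -0.10 with 1 library left out. Its duplicate hoxb1b, which is expressed earlier and helps to start hoxb1a expression, was at 68.2, 53.9, 24.6 and 15.3 CPM in controls and 2.67, 37.2, 14.3 and 21.5 CPM in ca_fgfr1. The value of ca_fgfr1 replicate 1 stood below all others, and the 7 other libraries overlapped between groups. Across libraries hoxb1b varied 25.5-fold and hoxb1a 2.72-fold, so that the ratio of hoxb1a to hoxb1b was 1.48 to 3.35 in controls and 1.72 to 23.5 in ca_fgfr1. The log2 fold change of hoxb1b was -1.1 ± 0.66 (edgeR adjusted p = 0.866), with a 95% interval from -2.56 to 0.36, and it was -0.73 without ca_fgfr1 replicate 1 and -1.67 without ca_fgfr1 replicate 2.

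The other group 1 genes were hoxa1a and hoxc1a. hoxa1a was at 11.1, 5.32, 6.26 and 4.20 CPM in controls and 3.96, 10.5, 5.06 and 5.82 CPM in ca_fgfr1. Its highest values were those of control replicate 1 and ca_fgfr1 replicate 2, and the group means ± SD were 6.71 ± 3.02 and 6.34 ± 2.89 CPM (n = 4), with a log2 fold change of -0.08 and a 95% interval from -0.96 to 0.81. hoxc1a was at 19.1, 12.0, 16.6 and 5.86 CPM in controls and 1.53, 7.18, 1.32 and 11.5 CPM in ca_fgfr1. Replicates 1 and 3 of ca_fgfr1 were lowest and the groups overlapped. Its log2 fold change, -1.32 ± 0.65 (edgeR adjusted p = 0.866), was the one furthest from 0 in groups 1-4, and it was -2.04 without ca_fgfr1 replicate 4.

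Group 2 genes reach furthest forward, to the front of rhombomere 2 for hoxa2b, and both act in the identity of the second pharyngeal arch in zebrafish. hoxa2b was at 121, 118, 82.6 and 81.7 CPM in controls and 97.5, 106, 144 and 102 CPM in ca_fgfr1. All 8 values lay within 1.77-fold, the groups overlapped, and the log2 fold change was 0.16 ± 0.23 (95% interval -0.35 to 0.67). hoxb2a was at 42.8, 57.1, 44.8 and 42.5 CPM in controls and 42.0, 28.5, 40.6 and 38.4 CPM in ca_fgfr1. Every ca_fgfr1 value was below every control value, but the gap was small, from 42.0 to 42.5 CPM, and the log2 fold change was -0.32 ± 0.22 (edgeR adjusted p = 0.870). Of all genes tested, 1.44% were lower in ca_fgfr1 without overlap, and of the 18 Hox genes hoxb2a was, besides hoxa10b, which the filter favoured. Without control replicate 2 the log2 fold change of hoxb2a was -0.21.

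Group 3 genes are expressed in the caudal rhombomeres. hoxa3a was at 145, 203, 165 and 140.2 CPM in controls and 130.0, 140.1, 184 and 203 CPM in ca_fgfr1. Of the 18 tested genes it varied least over the libraries, 1.56-fold, and the log2 fold change was 0.01 ± 0.23 (95% interval -0.49 to 0.51). hoxb3a, whose main hindbrain domain is rhombomeres 5 and 6, was at 87.5, 253, 224 and 214 CPM in controls and 162, 112, 188 and 123 CPM in ca_fgfr1. Its lowest values were those of control replicate 1 and ca_fgfr1 replicate 2, the 2 libraries with the lowest elavl3. The log2 fold change of hoxb3a was -0.41 ± 0.32 (edgeR adjusted p = 0.879), and it was -0.66 without control replicate 1 and -0.26 without control replicate 2. The part of neuron content in this result was not tested.

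The remaining group 3 genes lay below the control mean in every ca_fgfr1 library. hoxd3a was at 18.6, 42.6, 40.8 and 35.9 CPM in controls and 13.9, 18.4, 26.5 and 25.0 CPM in ca_fgfr1. All ca_fgfr1 values lay below those of control replicates 2 to 4, while control replicate 1 lay among them, and the log2 fold change was -0.72 ± 0.31 (unadjusted p = 0.0424, edgeR adjusted p = 0.866). hoxc3a was at 6.28, 5.59, 22.8 and 12.8 CPM in controls and 1.34, 9.93, 3.5 and 9.02 CPM in ca_fgfr1. It varied 17.1-fold over the libraries with overlapping groups, and the log2 fold change was -1.01 ± 0.62 (edgeR adjusted p = 0.866). It was -0.50 without control replicate 3 and -0.67 without ca_fgfr1 replicate 1.

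Group 4 genes have their anterior limit near the border of rhombomeres 6 and 7 and are activated there by retinoic acid. hoxb4a was at 22.9, 39.7, 39.3 and 29.5 CPM in controls and 14.3, 29.1, 20.4 and 17.3 CPM in ca_fgfr1. Group means ± SD were 32.8 ± 8.11 and 20.3 ± 6.39 CPM (n = 4), the groups overlapped through control replicate 1 and ca_fgfr1 replicate 2, and the log2 fold change was -0.70 ± 0.29 (unadjusted p = 0.0333, edgeR adjusted p = 0.866). hoxd4a was at 156, 112, 80.8 and 47.8 CPM in controls and 40.9, 109, 34.9 and 88.4 CPM in ca_fgfr1. The lowest 3 libraries were ca_fgfr1 replicates 3 and 1 and control replicate 4, and the log2 fold change was -0.53 ± 0.43 (edgeR adjusted p = 0.883). It was -0.24 without control replicate 1 and -0.86 without ca_fgfr1 replicate 2. hoxc4a was at 19.7, 13.6, 15.9 and 9.32 CPM in controls and 2.48, 9.33, 4.02 and 15.8 CPM in ca_fgfr1. The same 2 ca_fgfr1 libraries were lowest, and the log2 fold change was -0.89 ± 0.51 (edgeR adjusted p = 0.866), against -0.59 without ca_fgfr1 replicate 1 and -1.51 without ca_fgfr1 replicate 4.

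**Figure D2:**
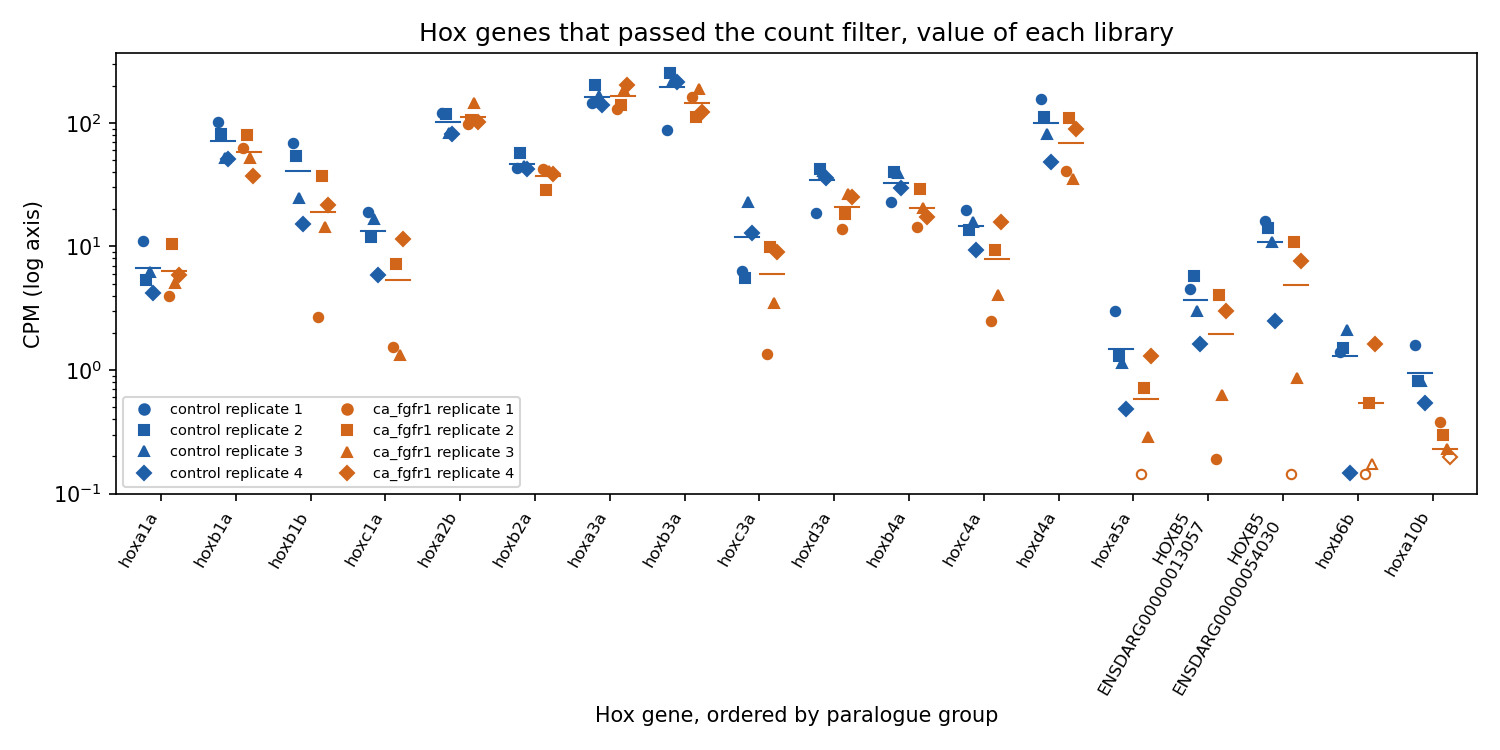
Level in CPM (log axis) of the 18 Hox genes that passed the count filter in each of the 8 libraries, with controls in blue, ca_fgfr1 in orange, 1 marker shape per replicate number and a line at each group mean. Open symbols are libraries with 0 counts, drawn at the level of 3 counts. Values of hoxa2b and hoxa3a lie within 1.77-fold, while hoxb1b, hoxc1a, hoxc4a and the group 5 and 6 genes are lowest in ca_fgfr1 replicates 1 and 3. Heights of different genes do not compare, since CPM is not per length.

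Over groups 1-4, 11 of 13 genes had a log2 fold change below 0, with a median of -0.53, and hoxa2b and hoxa3a were above 0. Summed over the 13 genes, levels were 819, 997, 815 and 690.2 CPM in controls and 575, 698, 719 and 698 CPM in ca_fgfr1. The lowest control and the 3 highest ca_fgfr1 libraries were at nearly the same sum. Of the 2 genes lower at an unadjusted p under 0.05 in groups 1-4, hoxd3a and hoxb4a, neither passed the adjusted threshold in any alternative fit, where the smallest adjusted p was 0.144 for both.

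Groups 5-8 mark the caudal end of the hindbrain and the spinal cord. Their 12 genes summed to 282, 343, 349 and 100 counts in controls and 5, 295, 34 and 240 counts in ca_fgfr1, or 26.4, 23.4, 17.9 and 4.88 CPM against 0.239, 17.6, 1.95 and 15.7 CPM. Within ca_fgfr1 the libraries split: replicates 2 and 4 lay between control replicates 3 and 4, whereas replicates 1 and 3 lay below every control. Most of these counts came from the HOXB5 IDs, which stand for hoxb5a and hoxb5b without telling which is which. In zebrafish hoxb5b is a retinoic acid target of the lateral mesoderm as well as of the neural tube.

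HOXB5 ENSDARG00000054030 was at 16.2, 14, 10.9 and 2.49 CPM in controls and 0, 10.9, 0.862 and 7.64 CPM in ca_fgfr1, from 173, 206, 213 and 51 counts and 0, 183, 15 and 117 counts. The 0 in ca_fgfr1 replicate 1 allows up to 0.143 CPM (3 counts, counting error only), so control replicate 1 was at least 113-fold higher. HOXB5 ENSDARG00000013057 was at 4.5, 5.73, 3.03 and 1.61 CPM in controls and 0.191, 4.07, 0.632 and 3.01 CPM in ca_fgfr1. The order of the libraries was alike in both IDs, with ca_fgfr1 replicates 1 and 3 lowest and control replicate 4 next. Log2 fold changes were -1.17 ± 1.04 and -0.91 ± 0.75 (edgeR adjusted p = 0.888 and 0.884). The spread was taken as the SD of log2 CPM after adding the equivalent of 2 counts at the mean depth. It was larger within ca_fgfr1 (3.03 and 1.77) than within controls (1.22 and 0.77). The 3.03 depends on that addition, since ca_fgfr1 replicate 1 had 0 counts. For ENSDARG00000054030 the log2 fold change was -0.74 without ca_fgfr1 replicate 1, -1.96 without ca_fgfr1 replicate 2 and -3.1 with limma-voom, and for ENSDARG00000013057 it was -0.52, -1.56 and -1.6.

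The other tested genes of groups 5-8 were hoxa5a and hoxb6b, both at no more than 3 CPM. hoxa5a was at 3, 1.30, 1.13 and 0.488 CPM in controls and 0, 0.718, 0.287 and 1.31 CPM in ca_fgfr1. hoxb6b was at 1.41, 1.5, 2.10 and 0.146 CPM in controls and 0, 0.538, 0 and 1.63 CPM in ca_fgfr1. Again ca_fgfr1 replicates 1 and 3 were lowest for both genes. All 4 tested genes of groups 5-8 were below 0, with a median log2 fold change of -1.22, which moved to -0.79 without ca_fgfr1 replicate 1, to -1.83 without ca_fgfr1 replicate 4 and to -2.29 with limma-voom. Of the 8 genes not tested, hoxc5a reached 19 counts in a library and the next 8 counts, and 5 never passed 3 counts.

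**Figure D3:**
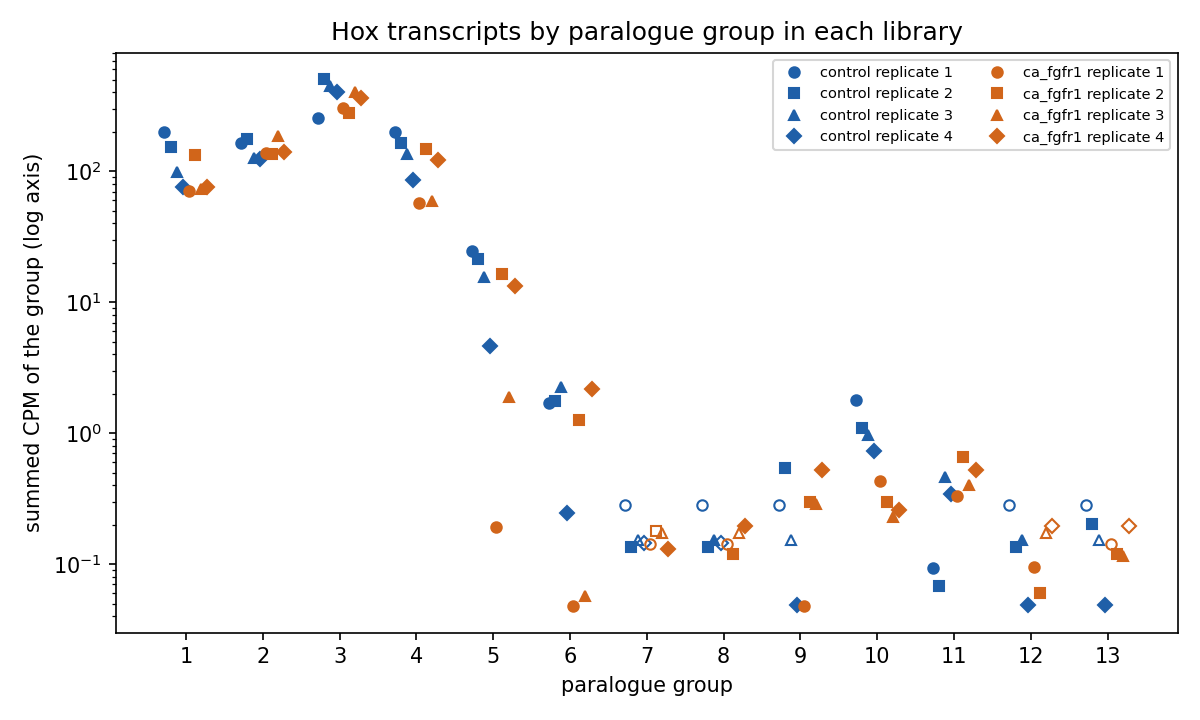
Summed level in CPM (log axis) of the Hox genes of each paralogue group from 1 to 13 in each library, with controls in blue and ca_fgfr1 in orange, 1 marker shape per replicate number. Open symbols are libraries with 0 counts, drawn at the level of 3 counts. In group 5 the sums of ca_fgfr1 replicates 1 and 3 (0.191 and 1.90 CPM) lie below the other 6 libraries (4.64 to 24.7 CPM), and from group 7 on no sum is above 19 counts.

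Groups 9-13, the genes of the trunk, tail and fins, were close to the limit of detection in every hindbrain. Their 22 IDs summed to 20, 30, 31 and 25 counts in controls and 19, 24, 18 and 20 counts in ca_fgfr1, and 2 IDs (HOXA11 ENSDARG00000104162 and hoxa13b) had no count. Only hoxa10b passed the filter, and it did so through the controls, where it is higher. It had 17, 12, 16 and 11 counts in controls and 8, 5, 4 and 0 counts in ca_fgfr1, that is 1.59, 0.818, 0.821 and 0.537 CPM against 0.382, 0.299, 0.230 and 0 CPM. The groups did not overlap, and the log2 fold change was -1.95 ± 0.69 (unadjusted p = 0.0165, edgeR adjusted p = 0.866). The next gene by mean level, hoxc11b, had 0, 1, 3 and 5 counts in controls and 4, 3, 0 and 2 counts in ca_fgfr1, which shows no order of the groups. In the 21 genes not tested, no library held more than 7 counts. The 7 were of hoxd11a, named after its values were seen, which had 0, 0, 1 and 0 counts in controls and 1, 7, 2 and 4 counts in ca_fgfr1. In the fit without a filter on low counts it was higher (unadjusted p = 0.0169, edgeR adjusted p = 0.830), the only 1 of 45 Hox genes higher at an unadjusted p under 0.05, beside 1.96% of all genes in that fit.

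By cluster letter, medians of the log2 fold change were -0.08 for the a clusters (5 genes tested), -0.80 for the b clusters (8), -1.01 for the c clusters (3) and -0.63 for the d cluster (2). All 13 tested genes of the b, c and d clusters were below 0, and the 2 genes above 0 were in the a clusters. Within groups 1-4, hoxa1a, hoxa2b and hoxa3a lay between -0.08 and 0.16, and hoxa10b and hoxa5a were the a cluster genes furthest below 0. The difference between clusters was not tested, and with 1 library left out the medians ranged from -0.45 (without ca_fgfr1 replicate 2) to 0.10 (without ca_fgfr1 replicate 1) for the a clusters and from -1.51 to -0.67 for the c clusters. Several Hox genes overlap a neighbour in RefSeq. hoxb3a overlaps hoxb4a, hoxb5a and hoxb6a, and hoxc3a overlaps 5 genes including hoxc4a and hoxc5a. Further overlaps are those of hoxa3a with hoxa5a, of hoxb1b with hoxb5b and hoxb6b, and of hoxd3a with hoxd4a. How reads from shared stretches were divided was not checked, so the split of reads between these genes is uncertain, as it is between duplicates.

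Much of the spread was between embryos of 1 group, as the colour map of the genes by library shows. ca_fgfr1 replicate 1 was the lowest library for 11 of the 18 genes and among the lowest 2 for 13, and ca_fgfr1 replicate 3 was among the lowest 2 for 10. Control replicate 1 was the highest library for 9 genes and control replicate 2 for 6. The library totals behind CPM were corrected by a TMM factor, and a low factor raises CPM. Control replicate 1 had the lowest factor, 0.811 against 0.94 to 1.15 in the other libraries. It also had the fewest genes detected, 21708 against 22784 to 23702. Its ranks rest in part on this scaling, and ranks without it were not counted. The 3 Hox genes lower at an unadjusted p under 0.05 became 1 without control replicate 2, without control replicate 3 or without ca_fgfr1 replicate 1. They became 5 without ca_fgfr1 replicate 4. The share of all genes lower was not counted with 1 library left out, so these counts have no background. The 3 include hoxa10b, which the filter favoured. The median over the tested Hox genes, hoxa10b included, was -0.56 without ca_fgfr1 replicate 1 and -1.02 without ca_fgfr1 replicate 4.

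**Figure D4:**
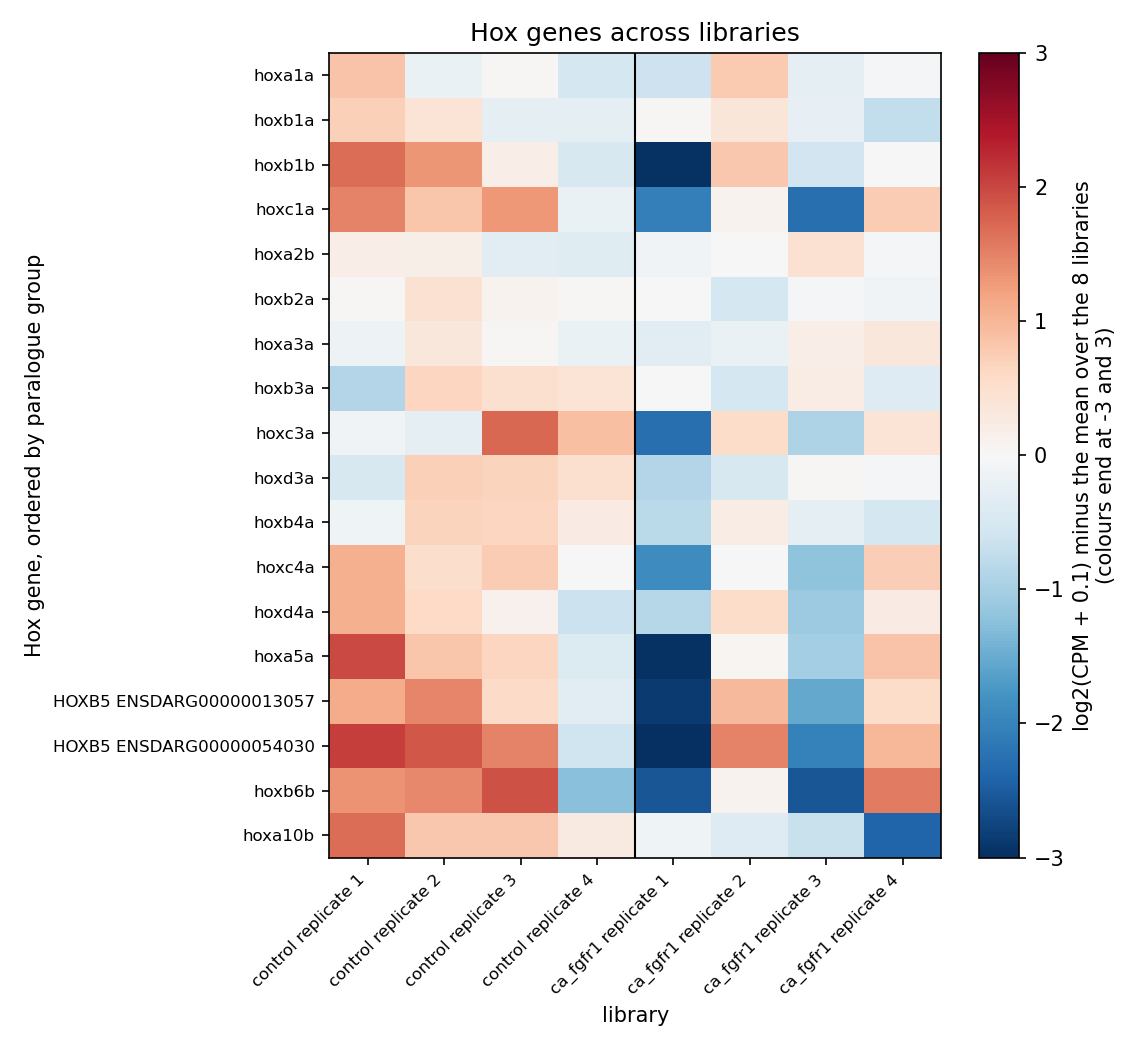
Colour map of log2(CPM + 0.1) minus the mean over the 8 libraries for the 18 tested Hox genes, in rows by paralogue group, and the libraries in columns, controls left of the line. Colours end at -3 and 3. Blue is deepest in ca_fgfr1 replicate 1, for hoxb1b, hoxc1a, hoxc3a, hoxc4a and groups 5 and 6, and in ca_fgfr1 replicate 3 for hoxc1a, HOXB5 ENSDARG00000054030 and hoxb6b, and in ca_fgfr1 replicate 4 for hoxa10b, while the rows of hoxa2b, hoxb2a and hoxa3a are nearly even.

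Other measures moved with these libraries. ca_fgfr1 replicate 1 had the lowest summed level of the 5 marker IDs listed for pectoral fin and lateral mesoderm, 51.2 CPM against 147 to 256 CPM in the other libraries. Most of its sum was PRRX1 ENSDARG00000033971, at 44.7 CPM, and tbx5a was at only 0 to 4.05 CPM over all libraries. For hand2, ca_fgfr1 replicate 1 was at 0.334 CPM against 17.3 to 91.1 CPM. This library was also lowest for twist1a, a gene of neural crest and mesenchyme, at 16.4 CPM against 59.8 to 97.4 CPM, and for DLX2 ENSDARG00000079964, at 4.63 CPM. Other crest and mesenchyme markers were mixed in this library when set against the other ca_fgfr1 libraries. The crest genes foxd3 (13.3 against 13.6 to 23.6 CPM) and crestin (7.73 against 12.9 to 19.1 CPM) were lower there. In contrast, sox10 was at 56.6 CPM, against 11.9 to 26.7 CPM, and col9a2 at 101 CPM, against 57.3 to 76.1 CPM. All of these genes lay within the range of the controls in this library, sox10 within 14.4 to 60.3 CPM. In ca_fgfr1 replicate 3, hand2 and twist1a were not low, at 60.2 and 97.4 CPM. Control replicate 4, the lowest control in groups 5-8, held the highest summed level of the 8 muscle and somite markers, 138 CPM against 3.37 to 6.86 CPM, of which myog was at 0 in every library. Control replicate 1, the highest library for 9 Hox genes on TMM-scaled CPM, had the highest summed level of the 5 epidermal keratins, 18233 CPM. The other controls were at 6956 to 12054 CPM, and ca_fgfr1 replicate 1 was lowest at 5334 CPM. Summed markers of neural crest and pharyngeal arch ranged from 142 to 210.5 CPM in controls and 99.2 to 304 CPM in ca_fgfr1, those of vasculature from 54.0 to 153 and 68.8 to 102 CPM, and those of the otic vesicle from 493 to 748 and 427 to 875 CPM. Blood markers ranged from 3.37 to 138 and 3.23 to 79.6 CPM, and mesenchyme markers from 257 to 1213 and 376 to 549 CPM. The part of these tissues, and of how far caudally each dissection reached, in the Hox values was not tested.

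Genes that act on Hox expression in the hindbrain were read from a list of 15 measured IDs, of which 12 were tested. edgeR, DESeq2 and limma-voom each called 0 of them, beside 0.0498%, 0.455% and 0.0553% of all genes. At an unadjusted p under 0.05, 2 were higher and 1 lower in edgeR, beside 2.14% of all genes higher and 3.21% lower. In each of the other tools 2 were higher and 2 lower, beside 4.46% of all genes lower in DESeq2 and 3.07% in limma-voom. The share of all genes higher was not counted for these tools. Log2 fold changes in edgeR were above 0 for 2 and below 0 for 10, with a median of -0.40, beside 54.1% of all genes below 0 and a median of -0.04. aldh1a2, the enzyme that makes retinoic acid, was at 50.7, 45.5, 33.0 and 19.2 CPM in controls and 6.44, 25.9, 4.77 and 53.4 CPM in ca_fgfr1. Its lowest 3 libraries, ca_fgfr1 replicates 3 and 1 and control replicate 4, were the lowest 3 of groups 5-8 as well, and the log2 fold change was -0.71 ± 0.66 (edgeR adjusted p = 0.893). It was -0.39 without ca_fgfr1 replicate 3, -1.62 without ca_fgfr1 replicate 4 and -1.28 with limma-voom. The part of aldh1a2 in the Hox values was not tested.

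The enzymes that degrade retinoic acid differed in direction. cyp26b1 was at 86.6, 366, 294 and 232 CPM in controls and 879, 525, 677 and 515 CPM in ca_fgfr1. Every ca_fgfr1 value was above every control value, with a log2 fold change of 1.41 ± 0.39 (unadjusted p = 0.00390, edgeR adjusted p = 0.658), and 1.90% of all genes tested were higher without overlap. cyp26c1 was at 119, 124, 172 and 191 CPM in controls and 279.7, 185, 344 and 311 CPM in ca_fgfr1, overlapping only through ca_fgfr1 replicate 2 (log2 fold change 0.89 ± 0.26, edgeR adjusted p = 0.757). cyp26a1, which retinoic acid itself induces, was at 14, 13.6, 3.39 and 3.76 CPM in controls and 0.0477, 2.81, 2.70 and 5.23 CPM in ca_fgfr1. It was lowest in ca_fgfr1 replicate 1, with 1 count, and its log2 fold change was -1.68 ± 0.85 (edgeR adjusted p = 0.866). The retinoic acid receptor gene raraa had a log2 fold change of -0.96 ± 0.35 (unadjusted p = 0.0194, edgeR adjusted p = 0.866), or -0.63 without control replicate 3, and the segment gene egr2b one of -0.02 ± 0.32 (edgeR adjusted p = 0.995).

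**Figure D5:**
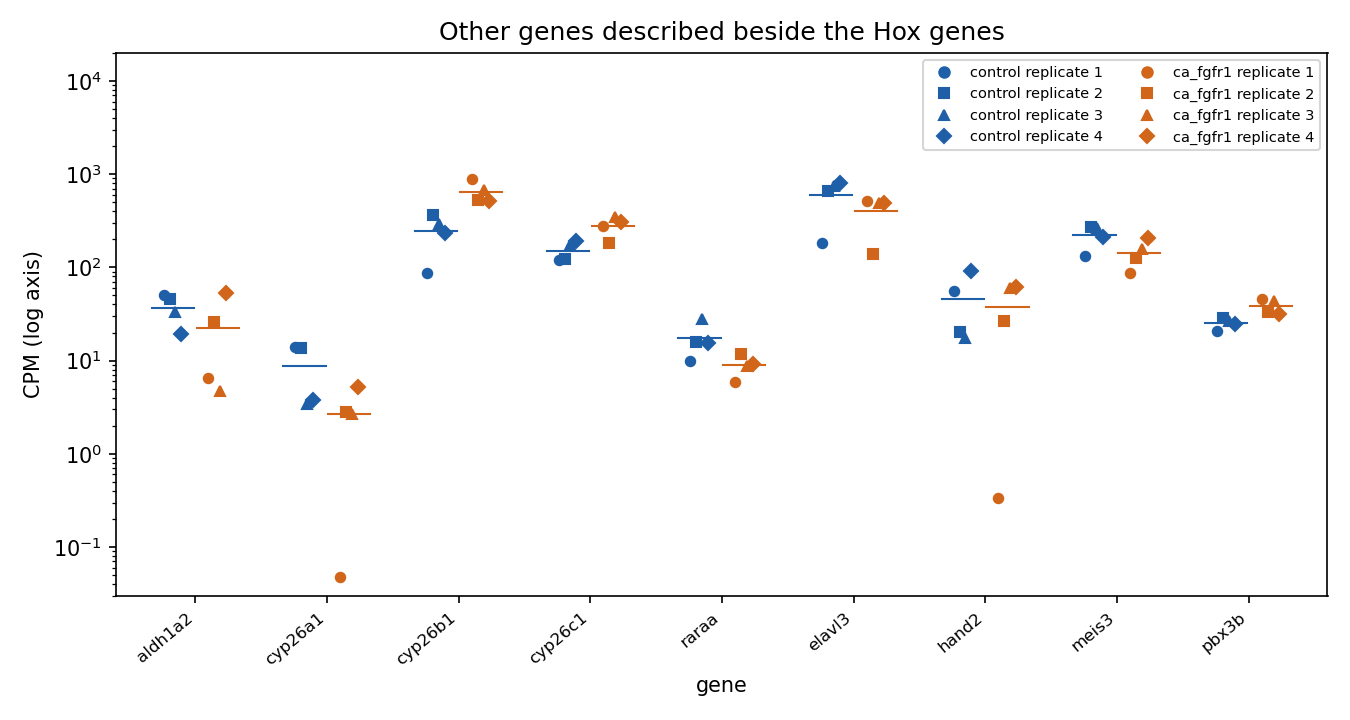
Level in CPM (log axis) of 9 other genes in each of the 8 libraries: aldh1a2, the 3 cyp26 genes, raraa, elavl3, hand2, meis3 and pbx3b, with controls in blue, ca_fgfr1 in orange, 1 marker shape per replicate number and a line at each group mean. cyp26b1 and pbx3b do not overlap between groups, aldh1a2 is lowest in ca_fgfr1 replicates 1 and 3, and hand2 stands at 0.334 CPM in ca_fgfr1 replicate 1.

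The Pbx, Meis and Pknox partners of the Hox proteins were read from 14 IDs, of which 13 were tested. edgeR, DESeq2 and limma-voom each called 0, and each had 1 higher and 0 lower at an unadjusted p under 0.05, beside 2.14% of all genes higher and 3.21% lower in edgeR. For DESeq2 and limma-voom the share of all genes higher was not counted. In edgeR 3 were above 0 and 10 below, with a median log2 fold change of -0.27, beside 54.1% of all genes below 0 and a median of -0.04. Without overlap, 2 were higher, beside 1.90% of all genes. pbx3b was at 20.8, 28.4, 26.3 and 25.0 CPM in controls and 45.7, 32.9, 43.2 and 31.4 CPM in ca_fgfr1, without overlap (log2 fold change 0.61 ± 0.22, unadjusted p = 0.0205, edgeR adjusted p = 0.866). The other was PKNOX1 ENSDARG00000018765, at 41.1 to 46.9 CPM in controls and 48.0 to 64.0 CPM in ca_fgfr1 (log2 fold change 0.32 ± 0.20, edgeR adjusted p = 0.866). meis3, which acts with Hox group 1 proteins in the zebrafish hindbrain, had means ± SD of 221 ± 64.3 CPM in the 4 controls and 143 ± 49.7 CPM in the 4 ca_fgfr1 libraries (log2 fold change -0.63 ± 0.31, edgeR adjusted p = 0.866). pbx4, the main Pbx gene of the early zebrafish hindbrain, had means ± SD of 301 ± 98.9 CPM in controls and 251 ± 76.1 CPM in ca_fgfr1, with overlapping groups (log2 fold change -0.26 ± 0.31, edgeR adjusted p = 0.923).

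Genes known to be expressed in front of the Hox domain were read as well. Of 11 IDs of the forebrain, midbrain and rhombomere 1, 8 were tested. Of these, 3 were above 0 and 5 below, with a median log2 fold change of -0.11, beside 54.1% of all genes below 0. edgeR and limma-voom called 0 of them, beside 0.0498% and 0.0553% of all genes. Each had 1 higher at an unadjusted p under 0.05, beside 2.14% of all genes in edgeR. DESeq2 called 1, beside 0.455% of all genes, with 2 higher at an unadjusted p under 0.05. Shares of all genes higher were not counted for DESeq2 or limma-voom, so their counts of higher genes have no background. EN2 ENSDARG00000038868, an engrailed gene of the midbrain-hindbrain boundary, was at 2.62, 1.23, 0.718 and 1.12 CPM in controls and 3.05, 11.2, 9.77 and 9.21 CPM in ca_fgfr1. The groups did not overlap, with ca_fgfr1 replicate 1 nearest to the controls, and 1.90% of all genes tested were higher without overlap. The log2 fold change of this EN2 ID was 2.57 ± 0.51 (edgeR adjusted p = 0.284, DESeq2 adjusted p = 0.000447). gbx2, a gene of rhombomere 1, was at 18.9 to 38.2 CPM in controls and 13.8 to 113 CPM in ca_fgfr1 (log2 fold change 1.1 ± 0.50, edgeR adjusted p = 0.866).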

How the data were processed

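RNA-seq libraries of 8 single hindbrains (4 control, 4 ca_fgfr1) were analysed. The authors amplified the cDNA, sequenced single-end reads, aligned them to GRCz10 with STAR 2.5.1b and deposited expected counts per Ensembl gene from RSEM 1.2.31, rounded to whole numbers and not scaled for depth. Per the labels, groups follow the recorded genotype. Column names give only a letter and the replicate number, and C was taken to mean control and F the fgfr1 genotype. No sample column was left unused. RSEM shares out reads that match several genes. No pair of libraries of the same group matched within sampling noise, and pairs across groups were not compared.

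Counts were analysed with R 4.3.3 and edgeR 4.0.16: filterByExpr at its defaults (18075 genes kept), TMM scaling, glmQLFit and glmQLFTest on all 8 libraries with no covariate, and Benjamini-Hochberg adjustment over all genes tested. A gene was called at an adjusted p of 0.05 or less. CPM uses the TMM-scaled totals, errors are SD or SE as named, and 95% intervals come from the fit. The steps were tested on simulated data. A table of symbols named 26350 of the 32189 IDs (81.9%), and RefSeq served for names and overlaps only. No Hox sequence and no transcript length was used here.

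Values in every library are given for tested Hox genes of groups 1-4 with a mean of at least 5 CPM, for the 2 genes of highest mean in groups 5-8 and in groups 9-13, for the largest rises and falls among genes at that level, and for Hox genes at an unadjusted p under 0.05 or without overlap. Other Hox genes and genes of the lists (Hox cofactors, Hox regulators, anterior genes, tissue markers) may be named, and etv5b and the FGFR1 IDs, outside this rule, were added as a label check with their values known. The Hox genes and the lists were chosen with earlier results of these data known, and the lists were given no set test. Some list genes are not reported here by name. Alternatives were DESeq2 1.42.0, limma-voom (limma 3.58.1), other scaling factors, other filters, robust fitting, a replicate block and leaving out each library. The newer quasi-likelihood method of edgeR was added after seeing the data.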

Additional observations from a re-analysis of the deposited data

Results flagged for a closer look

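Among 42 groups of 4 libraries examined (the tested Hox genes and the Hox sums in each condition), 2 had a library whose gap to the nearest of the others took up more of the group's range than Dixon's 95% critical value allows, which chance gives in about 1 in 20 groups. For hoxb2a, control replicate 2 was at 57.1 CPM and the other controls at 42.5 to 44.8 CPM. For the sum of Hox groups 1-4, ca_fgfr1 replicate 1 was at 575 CPM and the other ca_fgfr1 libraries at 698 to 719 CPM.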

How the results depend on the processing

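No Hox gene was called under any of the 18 alternatives run. Of 320 log2 fold changes of Hox genes under them, 306 kept the direction reported and 14 reversed, in 3 genes near 0. hoxa3a, at 0.01 as reported, was at -0.0045 with relative log expression factors, -0.041 with library totals only, -0.031 with a filter at 5 CPM in 4 libraries, -0.0046 with DESeq2, -0.002 with limma-voom and -0.00027 with the replicate block, and between -0.14 and 0.13 with 1 library left out. hoxa1a ranged from -0.45 to 0.26 and hoxa2b from -0.0074 to 0.25 with 1 library left out. Of all genes, 9 were called as reported, 14 without a filter on low counts, 82 with DESeq2, 2 with the replicate block and 1 to 13 with 1 library left out. Hox genes lower at an unadjusted p under 0.05 numbered 3 as reported, beside 3.21% of all genes, and 5 with limma-voom, beside 3.07%. With 1 library left out they numbered 1 to 5, and the share of all genes was not counted there. The 3 as reported and the 5 of limma-voom include hoxa10b, which the filter favoured. The median of groups 5-8, -1.22 as reported, was -1.75 with the replicate block. Without a filter, 45 Hox genes entered the test and 0 were called, beside 14 of 26959 genes. Of the 45, 29 were below 0 and 16 above. The share of all genes below 0 was not counted in that fit, so the 29 cannot be set against it. Replicate numbers did not pair the libraries (correlations of same-numbered deviations from -0.293 to 0.22), and the block left the count of Hox genes called at 0. Low counts limit what can be read from the genes of groups 7 to 13, and with 4 embryos a group only 5 Hox genes had an interval within a 2-fold change.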
